A study of Mus musculus with 2 samples.

Results

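The genes examined here encode proteins of tight and gap junctions, the contacts that seal and couple neighbouring epithelial cells. They were the named genes Jam2, F11r, Cldn1, Cldn2, Ocln, Tjp1, Marveld2, Gjb1 and Gja1, found by pairing the Ensembl identifiers of the count table with GENCODE M21 symbols. All 9 genes were found among the 35275 genes of the table. AML12 is a non-transformed mouse hepatocyte line derived from a mouse with a human TGF-alpha transgene, and its medium contained dexamethasone. The labels give liver of a male CD-1 mouse aged 3 months for both groups. Control cells were untreated, and senescent cells had been exposed on 6 consecutive days to hydrogen peroxide. The first exposure was at 1 mM and the later ones at 750 μM. Each lasted 1 h and was followed by 23 h in complete medium. RNA of 3 samples was pooled for each condition and sequenced as 1 library, so the senescence model was represented by a single pooled library of a single cell line and no difference has a replicate check. Every ratio below compares these libraries, and no p-value was computed. Sequencing depth was 28021941 counted reads over 17403 genes for control cells and 25738075 over 17592 genes for senescent cells.

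Tight junctions hold strands of claudins, joined by the MARVEL proteins occludin and tricellulin and by adhesion molecules of the JAM family, and cytoplasmic scaffold proteins tie these strands to actin. In the liver they close the bile canaliculus between neighbouring hepatocytes and keep bile apart from blood. Gap junctions are channels built of connexins that pass ions and small metabolites from cell to cell, and hepatocytes are classically coupled by the connexin encoded by Gjb1.

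Senescent AML12 cells showed higher read counts of Jam2 and Gja1 past the threshold, a log2 ratio of 1.5 or 2.83-fold in either direction with a 95% counting interval that excluded 0. Of the 8 genes with at least 10 reads over both libraries, 2 were higher and 0 were lower. Among all 14383 genes with at least 10 reads, 2.71% were higher, 5.6% were lower and 8.31% passed the threshold in either direction. Cldn1 had too few reads to be tested. The median log2 ratio of the 8 genes was 0.78, against -0.02 for all tested genes, and is given as a description only. Of the genes past the threshold, the nearest to it was Gja1, with a log2 ratio of 2.85. Of those short of it, the nearest were Ocln at 1.04 and Cldn2 at 1.00. Together the 9 genes took 0.121% of all control reads and 0.189% of all senescent reads. Intervals are 95% Clopper-Pearson for ratios and shares and exact Poisson for counts. They cover counting error only, since 1 library per condition leaves the spread between cultures unmeasured. Without molecular identifiers PCR copies cannot be told from separate molecules, so the intervals may be too narrow even for counting error. In bulk samples, fewer cells with a transcript and less of it per cell cannot be told apart.

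**Figure D1:**
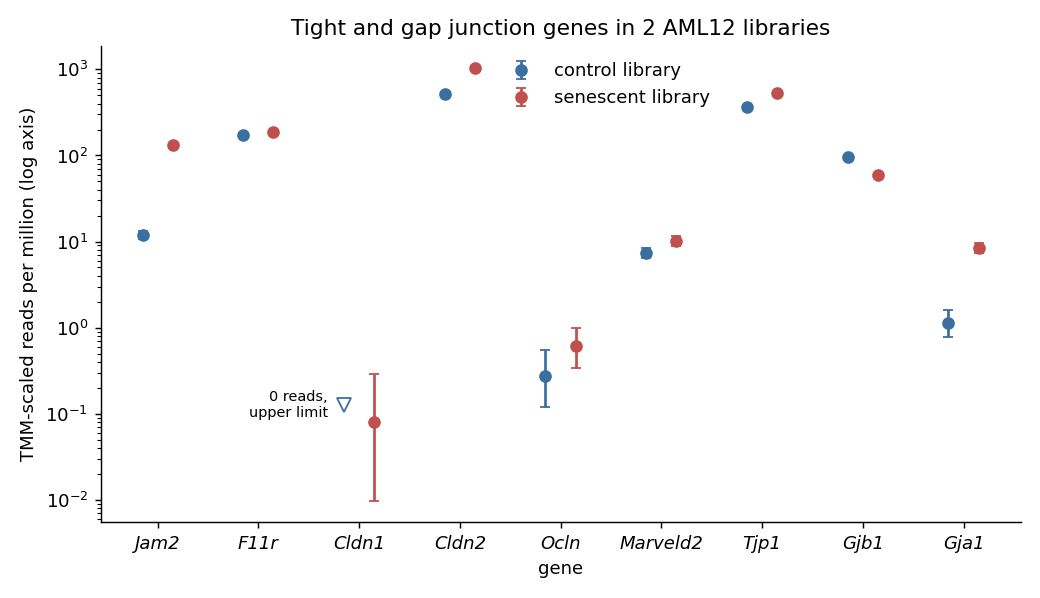
TMM-scaled CPM, that is, reads per 1000000 (vertical log axis), of the 9 junction genes (horizontal axis) in the control library (blue) and the senescent library (red), with exact Poisson 95% intervals as bars, and an open triangle at the upper limit where no read was counted. Of the genes with at least 10 reads, Jam2 and Gja1 show the widest gaps between the libraries, at 11.8 against 132 and 1.13 against 8.43, while Cldn1 and Ocln lie below 1 in both.

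Promoter sequences from RefSeq, on GRCm38.p6, were matched for 8 of the 9 genes, namely F11r, Cldn1, Cldn2, Ocln, Tjp1, Marveld2, Gjb1 and Gja1. The 250 bases before each annotated start were searched on both strands for the TATA box TATAAA, for the AP-1 motif TGANTCA, which reads the same on both strands, for the E-box of Snail type CAGGTG, for the TEAD motif GGAATG, for the CCAAT box and for the Sp1 motif GGGCGG. Where a gene had several starts, a match at any start was counted. The promoters of Gja1, F11r and Cldn2 are shown because Gja1 passed the threshold, F11r is the other of the 8 genes with an AP-1 motif, and Cldn2 had the most reads. The windows of Gja1 and Cldn2 lie upstream of these genes as GENCODE M21 annotates them, and that of F11r reaches into its first exon. Each is read 5′ to 3′ on the plus strand, and capitals mark matches of the TATA box, AP-1, E-box or TEAD motif on either strand.
Gja1, chr10:56377050-56377299: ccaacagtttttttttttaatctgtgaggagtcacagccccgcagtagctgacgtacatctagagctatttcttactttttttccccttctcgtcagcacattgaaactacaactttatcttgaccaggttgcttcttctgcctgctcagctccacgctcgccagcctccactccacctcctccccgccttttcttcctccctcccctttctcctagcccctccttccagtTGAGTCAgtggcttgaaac
F11r, chr1:171437311-171437560: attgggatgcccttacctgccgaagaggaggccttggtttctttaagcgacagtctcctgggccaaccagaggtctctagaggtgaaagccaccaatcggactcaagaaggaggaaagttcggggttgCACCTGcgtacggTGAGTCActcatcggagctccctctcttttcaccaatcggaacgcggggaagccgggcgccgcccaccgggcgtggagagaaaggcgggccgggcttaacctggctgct
Cldn2, chrX:139800558-139800807: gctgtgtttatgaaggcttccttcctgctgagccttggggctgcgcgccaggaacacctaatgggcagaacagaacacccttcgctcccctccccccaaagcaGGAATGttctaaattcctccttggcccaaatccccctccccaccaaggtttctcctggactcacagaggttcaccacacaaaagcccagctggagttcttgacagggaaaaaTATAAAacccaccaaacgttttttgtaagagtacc
In Gja1 the capitals are TGAGTCA, 19 bases before the start. In F11r they are TGAGTCA, 109 bases before the start, and CACCTG, the reverse strand of CAGGTG, 122 bases before it. In Cldn2 they are TATAAA at 35 bases and GGAATG at 147 bases before the start. None of the capitals overlap one another. TGANTCA was found in 2 of the 8 genes, Gja1 and F11r, and, counted the same way at any start, in 7.82% of 27025 genes with RefSeq promoters. Gja1 and F11r had log2 ratios of 2.85 and 0.11. GGAATG was found in 2 genes, Cldn2 and Gjb1, against 14.4% of genes, TATAAA in 3 (Cldn2, Gjb1 and Marveld2) against 14.3%, and CAGGTG in 3 (F11r, Ocln and Gjb1) against 19.4%. CCAAT was found in 3 genes against 37.5% and GGGCGG in 6 against 35.4%. The 8 genes had 13 starts, 4 of them in Gjb1, or 1.62 per gene against 1.22 over all genes, and more starts give more chances of a match. A match is a run of letters, and binding to it was not measured.

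The JAM adhesion molecules of the tight junction differed from each other in how the libraries compared. Jam2 (ENSMUSG00000053062, chr16:84774123-84825928 on GRCm38, plus strand, 11 merged exons) encodes an immunoglobulin-type JAM protein best known from endothelium. It had 343 reads (interval 308 to 381) in the control and 3267 reads (3156 to 3381) in the senescent library. Scaled by TMM, a method that evens out library size and composition, these were 11.8 and 132 CPM, counts per 1000000 scaled reads. The senescent library was the higher one, 11.1-fold, at a log2 ratio of 3.48 (3.32 to 3.65). Of the 14383 tested genes, 51 had a higher ratio than Jam2.

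F11r (ENSMUSG00000038235, chr1:171437535-171464603, plus strand, 9 merged exons) encodes the JAM protein typical of epithelial cells, which binds scaffold and polarity proteins at the forming junction. Control cells had 5038 reads of F11r and senescent cells 4624, or 173 and 186 CPM. Its log2 ratio was 0.11 (0.05 to 0.16), and with total-count scaling it was 0.00, so no direction is given for F11r. The pair was therefore far apart in ratio, although both genes encode JAM proteins. Per kilobase of merged exons and within a library, a comparison free of scaling between libraries, the level of F11r was 33.3 times that of Jam2 (29.9 to 37.3) in the control. In the senescent library it was 3.21 times that of Jam2 (3.07 to 3.36).

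The wider JAM and CTX family held 7 genes, of which 5 were tested, 1 was higher and 1 was lower, with a median log2 ratio of 0.09. With total-count scaling this median was -0.02. Jam2 was the gene past the threshold upwards, and its share of the family's reads was 3.63% (3.26 to 4.02) in the control and 28.8% (28.0 to 29.7) in the senescent library. F11r took 53.3% (52.2 to 54.3) of these reads in the control and 40.8% (39.9 to 41.7) in the senescent library, the largest share in both. Esam, an adhesion molecule of endothelial cells, was the gene past the threshold downwards, with 75 control and 15 senescent reads and a log2 ratio of -2.03 (-3.0 to -1.28). Cxadr, a receptor of the same family at epithelial junctions, had 3411 and 3097 reads and a log2 ratio of 0.09. Jam3 and Clmp had 3 or fewer reads in both libraries.

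The claudin transcripts of both libraries were mainly Cldn2. Cldn2 (ENSMUSG00000047230, chrX:139800828-139811386, plus strand, 4 merged exons) encodes a claudin that forms pores for cations and water. It had 15005 reads (14766 to 15247) in the control and 25624 (25311 to 25940) in the senescent library, the most of the 9 genes in both. Scaled counts were 516 and 1030 CPM, a log2 ratio of 1.00 (0.97 to 1.03), which stayed under the threshold. The ratio was 0.89 with total-count scaling, and 844 tested genes had a higher ratio. Cldn1 (ENSMUSG00000022512, chr16:26356642-26371841, minus strand, 4 merged exons) encodes a barrier-forming claudin that hepatocytes of the liver express. It had 0 reads in the control, where an upper limit of 3.69 reads holds, and 2 reads (0.242 to 7.22) in the senescent library. Both counts lie at or under the floor of 3 reads, which corresponds to 0.103 CPM in control cells and 0.121 CPM in senescent cells, so no fold is given. Cldn1 was thus not detectable above the floor in either library of this hepatocyte line.

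Of 34 claudin genes and pseudogenes in the table, 28 had 3 or fewer reads in both libraries and 21 had no read in either. The 5 tested claudins had a median log2 ratio of -0.40, with 0 higher and 1 lower. The lower gene was Cldn6, a claudin best known from embryonic epithelia, with 219 control and 34 senescent reads and a log2 ratio of -2.43 (-3.02 to -1.93). Cldn2 took 79.9% (79.3 to 80.4) of all claudin reads in the control and 91.6% (91.3 to 92.0) in the senescent library. Cldn12, the second claudin by reads, went the other way in share, from 17.6% (17.1 to 18.2) to 7.66% (7.35 to 7.97), with a log2 ratio of -0.40 (-0.48 to -0.32). The level of Cldn2 per kilobase was 5.77 times that of Cldn12 (5.56 to 5.99) in the control and 15.2 times (14.6 to 15.9) in the senescent library.

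Of the MARVEL proteins, occludin had almost no reads. Ocln (ENSMUSG00000021638, chr13:100496507-100552718, minus strand, 10 merged exons) encodes occludin, which runs along the whole tight junction strand. It had 8 reads (3.45 to 15.8) in the control and 15 (8.40 to 24.7) in the senescent library. Its log2 ratio of 1.04 had an interval from -0.19 to 2.58, so at this depth no difference between the libraries was detectable for Ocln. Marveld2 (ENSMUSG00000021636, chr13:100595957-100616971, minus strand, 7 merged exons) encodes tricellulin, which sits at the corners where several cells meet. It had 213 reads (185 to 244) in the control and 251 (221 to 284) in the senescent library, or 7.32 and 10.1 CPM. The senescent value was the higher after scaling, at a log2 ratio of 0.46 (0.20 to 0.74), under the threshold. Per kilobase, Marveld2 exceeded Ocln 33.2 times (16.6 to 78.0) in the control and 20.9 times (12.4 to 37.9) in the senescent library. These intervals overlapped, so tricellulin transcripts outnumbered occludin transcripts in both libraries by factors that counting error does not separate.

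The list of 6 MARVEL and tricellular genes had 4 tested, 0 higher and 0 lower, with a median log2 ratio of 0.36. Lsr, whose protein recruits tricellulin to tricellular contacts, had the highest level per kilobase of this list, 139 in control and 166 in senescent cells, from 8797 and 8946 reads. Marveld3 and Ildr1 were at or under the floor in both libraries.

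Tjp1 (ENSMUSG00000030516, chr7:65296165-65527781, minus strand, 31 merged exons) encodes the zonula occludens scaffold that links claudins, occludin and JAM proteins to actin. It had 10547 reads (10347 to 10750) in the control and 13180 (12956 to 13407) in the senescent library, or 363 and 531 CPM. The senescent value was the higher one, at a log2 ratio of 0.55 (0.51 to 0.59), under the threshold. Of the 14383 tested genes, 2267 had a higher ratio than Tjp1. Tjp3, a scaffold gene of the same family, had 92 reads in control and 4 in senescent cells, which gave a log2 ratio of -4.01 (-6.20 to -2.89).

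Among 25 genes of plaque and polarity proteins, 24 were tested, 0 were higher and 2 were lower, with a median log2 ratio of 0.10, and of -0.01 with total-count scaling. The lower genes were Tjp3 and Amot, which encodes angiomotin and had 2206 control and 603 senescent reads at a log2 ratio of -1.64 (-1.77 to -1.51). Ybx3, a Y-box protein that binds the scaffold encoded by Tjp1, had the highest level per kilobase of this list, 100 in control and 151 in senescent cells. The 14 regulators of actin and myosin at junctions had 13 tested, 0 higher and 0 lower, and a median of 0.30. Cttn, which encodes cortactin, had their highest level per kilobase in the control at 141, against 187 in the senescent library. Rac1 had the highest in the senescent library at 202, against 119 in the control.

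**Figure D2:**
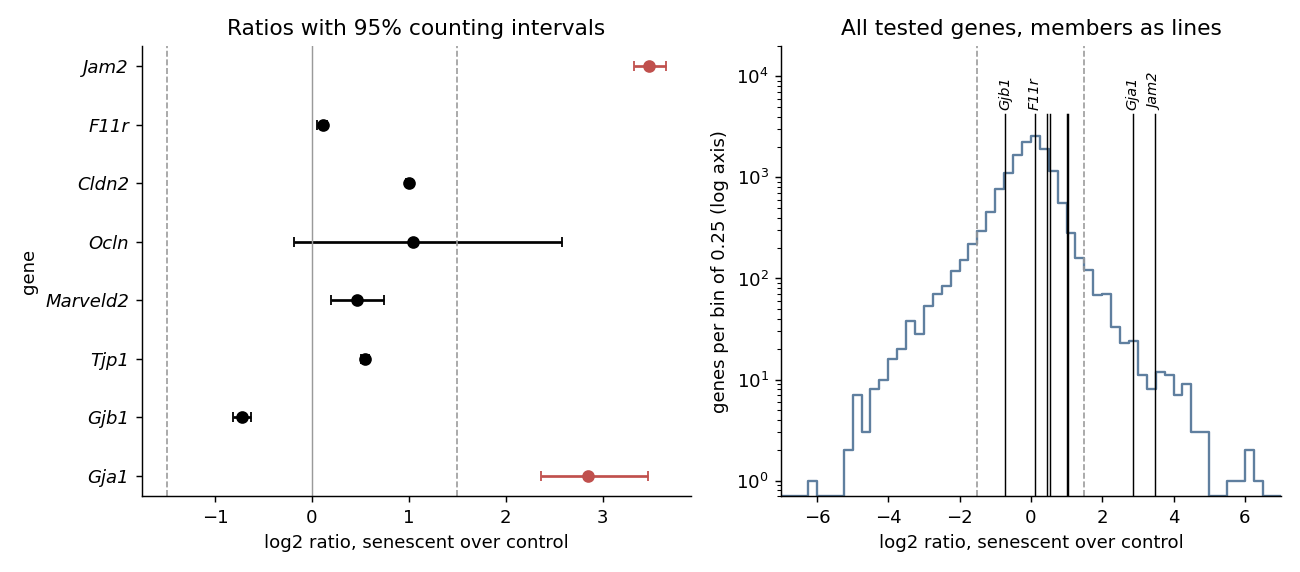
Left, log2 ratio of senescent over control (horizontal axis) of the 8 tested junction genes, with Clopper-Pearson 95% counting intervals as bars, genes past the threshold in red and the threshold of 1.5 in either direction as dashed lines. Right, number of tested genes (log axis) per bin of log2 ratio as an outline, with the 8 genes as vertical lines, of which 4 are named. Jam2 at 3.48 and Gja1 at 2.85 lie in the upper tail, and Gjb1 at -0.72 is the only one of the 8 below 0 with TMM scaling.

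Of the connexins of gap junctions, Gja1 passed the threshold and Gjb1 did not. Gjb1 (ENSMUSG00000047797, chrX:101376378-101385629, plus strand, 4 merged exons) encodes the main connexin of differentiated hepatocytes. It had 2827 reads (2724 to 2933) in the control and 1467 (1393 to 1544) in the senescent library. After scaling these were 97.2 and 59.1 CPM, so the control library was the higher one, 1.64-fold, at a log2 ratio of -0.72 (-0.81 to -0.63). This did not reach the threshold, and 2452 tested genes had a lower ratio. Gja1 (ENSMUSG00000050953, chr10:56377330-56402513, plus strand, 5 merged exons) encodes the most widely expressed connexin of the body, which in the liver is best known from cells other than hepatocytes. It had 33 reads (22.7 to 46.3) in the control and 209 (182 to 239) in the senescent library. Scaled counts were 1.13 and 8.43 CPM, and the senescent library was the higher one, 7.22-fold, at a log2 ratio of 2.85 (2.36 to 3.47). Of the tested genes, 81 had a higher ratio than Gja1.

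The makeup of the connexin reads differed accordingly. Gjb1 took 54.2% (52.8 to 55.5) of all connexin reads in the control and 32.1% (30.7 to 33.5) in the senescent library. Gja1 took 0.632% (0.436 to 0.887) and 4.57% (3.99 to 5.22). The intervals of the control and the senescent share did not overlap for either gene, so Gjb1 made up less and Gja1 more of the connexin reads of senescent cells. Per kilobase, Gjb1 exceeded Gja1 515 times (366 to 749) in the control and 42.2 times (36.5 to 49.0) in the senescent library. The merged exons of Gja1 span 10257 bases, and with its longest principal transcript of 3182 bases the same ratios were 172 and 14.1. Gja1 thus remained a small part of the connexin transcripts in both libraries, despite its ratio between them.

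Of 20 connexin genes, 7 were tested, 1 was higher and 0 were lower, with a median log2 ratio of 0.60. The family as a whole had 179 CPM in control and 184 CPM in senescent cells, and with total-count scaling 186 and 178 CPM, so their direction depended on the scaling. Gjb5 had 210 control and 123 senescent reads at a log2 ratio of -0.54 (-0.88 to -0.21). Gjb2, which encodes the other classical hepatocyte connexin, had 0 control and 8 senescent reads, too few to be tested. The 3 pannexins, channel proteins related in form, held 1 tested gene, Panx1, with 41 and 77 reads and a log2 ratio of 1.12 (0.57 to 1.72), under the threshold. Panx2 and Panx3 had no reads.

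**Figure D3:**
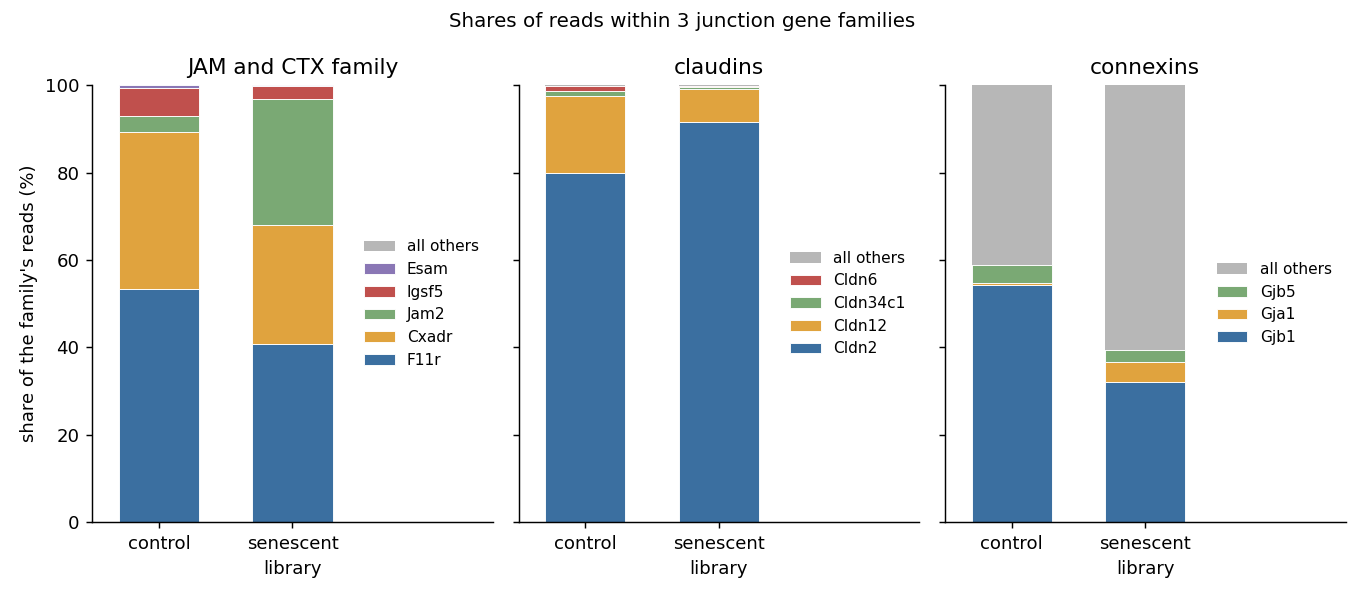
Share of the reads of each gene family (vertical axis, percent) taken by its genes, as stacked bars for the control and the senescent library, for the JAM and CTX family, the claudins and the connexins. Jam2 widens from 3.63% to 28.8%, Cldn2 from 79.9% to 91.6%, and Gjb1 narrows from 54.2% to 32.1%.

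The order of the levels per kilobase shows which junction transcripts these cells carried. In the control the order was Cldn2 at 155, F11r at 65.1, Gjb1 at 57.0, Tjp1 at 46.4, Marveld2 at 2.17, Jam2 at 1.95, Gja1 at 0.111, Ocln at 0.0652 and Cldn1 at 0 CPM per kilobase. In the senescent library it was Cldn2 at 311, F11r at 70.0, Tjp1 at 68.0, Gjb1 at 34.7, Jam2 at 21.8, Marveld2 at 2.99, Gja1 at 0.822, Ocln at 0.143 and Cldn1 at 0.0167. Neighbours whose counting intervals overlapped were Marveld2 with Jam2 and Gja1 with Ocln in the control, and F11r with Tjp1 in the senescent library. The order within the pairs Marveld2 with Jam2 and F11r with Tjp1 turned when the longest principal transcript replaced the merged exons. Cldn2 thus led in both libraries, and Jam2 stood above Marveld2 in the senescent library, where their intervals were apart.

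The tight and gap junction lists held in all 109 genes, of which 59 were tested, 2 (3.39%) were higher, 4 (6.78%) were lower, and the median log2 ratio was 0.15. Among all tested genes these shares were 2.71% and 5.6%, near those of the lists. The higher genes were Jam2 and Gja1. The lower genes were Tjp3, Cldn6, Esam and Amot. As the most similar gene groups, the 11 adherens junction genes had 11 tested, 0 higher and 1 lower, with a median of 0.06, or -0.04 with total-count scaling. Their lower gene was Nectin2, with 1859 control and 556 senescent reads at a log2 ratio of -1.51 (-1.65 to -1.37), and their highest level per kilobase was that of the catenin gene Ctnnb1, 336 in control and 395 in senescent cells. The 11 desmosome genes had 10 tested, 2 higher and 0 lower, with a median of 0.35. Their higher genes were the plakophilins Pkp1, with 31 and 121 reads at 2.16 (1.62 to 2.81), and Pkp3, with 25 and 89 reads at 2.02 (1.41 to 2.76), and Perp had their highest level per kilobase, 88.7 in control and 115 in senescent cells. With 1 library per condition the difference between these lists was not tested.

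**Figure D4:**
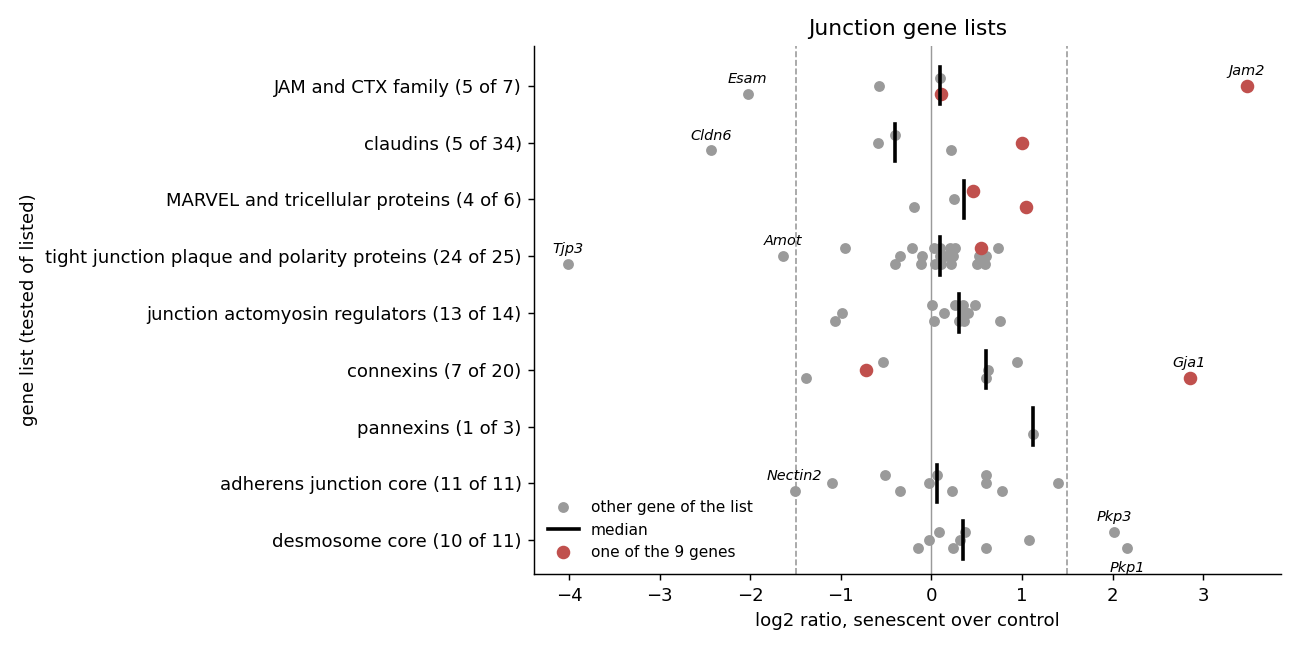
Log2 ratio of senescent over control (horizontal axis) of each tested gene in 9 lists of junction genes, with the 9 genes described here in red, other genes in grey, medians as black bars and the threshold of 1.5 in either direction as dashed lines. Jam2 at 3.48 and Gja1 at 2.85 lie apart from the genes of their lists, and Tjp3 at -4.01 is the lowest point.

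Markers of other cell types were read beside these results, since Jam2 and Gja1 are also expressed outside hepatocytes. The 8 endothelial markers together had 33 control and 51 senescent reads, or 1.13 and 2.06 CPM, with 2 tested, 1 higher and 0 lower. Egfl7 was the most abundant over both libraries, with 19 and 14 reads. Vwf, with 8 and 24 reads, was the most abundant in the senescent library and the higher gene, at a log2 ratio of 1.69 (0.61 to 3.18). Kdr had 0 and 5 reads and Pecam1 4 and 4, and Cdh5, Erg, Stab2 and Tek had 3 or fewer reads in each library. The 9 markers of fibroblasts and stellate cells together had 21 and 8 reads, with 1 tested, 0 higher and 1 lower. Col1a1, with 21 and 1 reads, was the most abundant over both libraries and the lower gene, Dcn had 0 and 4 reads, and 7 of these genes (Acta2, Col1a2, Col3a1, Lrat, Lum, Pdgfrb and Thy1) had 3 or fewer reads in both libraries. The 7 macrophage markers had 5628 and 2035 reads, mostly from Cd14 with 5551 and 1879 reads at a log2 ratio of -1.33. Of these markers 4 were tested, 2 were higher and 0 were lower, with a median of 1.01. The other tested markers went the other way from Cd14 and from the total, namely the higher genes Ptprc with 27 and 76 reads at 1.68 and Csf1r with 15 and 40 at 1.58, and Cd68 with 34 and 40 at 0.45, whose interval of -0.23 to 1.17 held 0. Adgre1, Clec4f and Lyz2 were at or under the floor. The 8 cholangiocyte markers had 2000 and 1490 CPM, with 6 tested, 1 higher and 0 lower, and a median log2 ratio of -0.39. Krt19 was the most abundant over both libraries, with 22885 and 19177 reads at -0.03, and Spp1 had the most control reads, with 25430 and 10580 at -1.04. Krt7 had 3248 and 1026 reads at -1.43. The higher gene was Cftr, with 44 and 176 reads at 2.20 (1.75 to 2.74), and Epcam and Sctr were at or under the floor. Of the 11 hepatocyte markers, 10 were tested, 1 was higher and 2 were lower, 6 lay above 0 and 4 below, and the median log2 ratio was 0.15, with 8540 and 10200 CPM in all. Krt8 was the most abundant, at 0.51, and Krt18 was at 0.82, Apob at 0.41 and Hnf4a at 0.14. The higher gene was Cps1, with 19 and 55 reads at 1.71 (0.99 to 2.60). Asgr1, a receptor of mature hepatocytes, was at or under the floor in both libraries. The lower genes were Alb, with 32076 control and 2917 senescent reads at a log2 ratio of -3.23 (-3.28 to -3.17), and Apoa1, with 2026 and 197 reads at -3.13 (-3.35 to -2.92). The part of the differences in these 5 marker lists in the junction results was not tested.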

How the data were processed

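RNA-seq was measured in 1 control and 1 senescent library, each of RNA pooled from 3 samples, after poly(A) selection and random priming. The authors deposited un-normalized counts of reads per Ensembl gene. The submitters' processing notes name CASAVA, STAR, DESeq2, edgeR and the build mm10, with no versions. The counting tool, its annotation and its use of strand are not given in the sources used here. Each column was given to the sample whose title starts with the letter that its name starts with, and 0 columns were left unused. Of 35275 genes, 34490 (97.8%) had a symbol. The others held 0.113% of reads in control and 0.109% in senescent cells.

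Libraries were scaled by TMM (edgeR 4.0.16, R 4.3.3), with a factor of 1.04 in control and 0.964 in senescent cells. Alternatives were DESeq2 1.42.0 size factors, upper quartiles and total counts, a smaller prior count and one of 5, a minimum of 1 or 100 reads, thresholds of 1 and 2, and wider intervals that assume a coefficient of variation of 0.1 or 0.4 between cultures. Log2 ratios used a prior count of 1 in proportion to library size. Intervals came from scipy 1.17.1 under Python 3.11.15, tables from pandas 2.3.3 and numpy 2.4.6, and plots from matplotlib 3.10.9. The script was tested on simulated counts with known folds and counting error only. These held no spread between cultures, so the test does not cover that error. Genes with at least 10 reads in the 2 libraries together were tested, and called where the log2 ratio passed 1.5 and its interval excluded 0. With 1 library per condition neither edgeR's nor DESeq2's test could be used.

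Levels per kilobase used the merged exons of GENCODE M21 on GRCm38. No exon of the 9 genes overlapped an exon of another annotated gene. Stretches of 50 bases found in transcripts of other genes made up 0.868% of those of F11r and 0.115% of those of Gja1, and none of those of the other 7 genes.

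The members and lists were chosen with earlier results of these data known. The named genes are all 9 members and, of each wider list, the gene with the highest level per length and up to 4 genes past the threshold in each direction with the largest absolute log2 ratio. Of each marker list they are the gene with the most reads and the defining markers at 3 or fewer reads. Some genes of the lists are not reported here. With 2 libraries no genes of similar pattern were sought. Cxadr, Cldn12, Gjb2 and Gjb5, the other marker genes named, and the untested genes named in lists other than those of markers, fall outside this rule and were chosen after their values were seen.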

Additional observations from a re-analysis of the deposited data

How the results depend on the processing

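Jam2 and Gja1 kept their direction and stayed past the threshold under each alternative scaling and prior count, at 3.37 to 3.48 and at 2.71 to 2.89 on the log2 scale. The 9 genes held 2 higher genes in all settings run but a threshold of 1, which gave 3, and 0 lower genes throughout. Of 141 alternative values of 23 results, 124 stayed within set limits and 17 moved further. The limits were the counting interval, 1 SD over genes for the median, and 1.5 times for counts of genes. A reversal was looked for only in the log2 ratios of Jam2 and Gja1, and 0 were found. Both ratios lie far from 0 beside the shifts between scalings, so this says nothing of the other values. Total-count scaling, which shifted the median of all tested genes by -0.11, gave log2 ratios of 0.00 for F11r, 0.89 for Cldn2, 0.44 for Tjp1 and -0.82 for Gjb1. Upper-quartile scaling gave 0.96 for Cldn2 and 0.51 for Tjp1. Over the wider tight and gap junction lists, a threshold of 1 gave 4 higher genes in place of 2, and at least 100 reads gave 2 lower genes in place of 4, since Esam and Tjp3 had fewer reads. Among the adherens junction genes, the smaller prior count and a threshold of 1 each gave 1 higher gene in place of 0. The lower genes of that list numbered 2 with a threshold of 1, 0 with a threshold of 2 and 0 with an assumed coefficient of variation of 0.4, in place of 1. The longest principal transcript in place of merged exons, chosen after seeing the data, gave ratios of Gjb1 to Gja1 of 172 in control and 14.1 in senescent cells, and of F11r to Jam2 of 25.5 and 2.46. The cause of the other shifts was not tested. The spread between cultures was not measured, so intervals understate the error. Ocln and Cldn1 are limited by depth.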

Other observations

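The regulators of actin and myosin at junctions held values below 0 for Mylk, which encodes myosin light chain kinase, with 1202 control and 492 senescent reads and a log2 ratio of -1.06 (-1.21 to -0.91), and for Shroom3, with 372 and 159 reads and -0.99 (-1.27 to -0.72). Both stayed under the threshold. Among the adherens junction genes, Nectin1 had 644 and 255 reads and a log2 ratio of -1.10 (-1.32 to -0.90), beside Nectin3 with 558 and 333 reads and -0.51 (-0.72 to -0.32). Nectin4 went the other way, with 6 and 15 reads and 1.40 (0.10 to 3.20), under the threshold. The cadherin gene Cdh1 had 16760 and 11203 reads at -0.35 (-0.39 to -0.32), while the catenin gene Ctnna1 had 14513 and 21220 reads at 0.78 (0.75 to 0.81). These genes were chosen after their values were seen.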
